A study of Mus musculus with 137 samples.

Results

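Expression of 9 genes of the Fanconi anemia and homologous recombination pathways (*Fanci*, *Fancd2*, *Fanca*, *Brca1*, *Brca2*, *Palb2*, *Brip1*, *Fancb*, and *Blm*) was followed in duodenal crypt and villus of mice exposed to hexavalent chromium, Cr(VI). The genes were taken by symbol from the 21450 genes of the probe table. They had 22 of its 30146 probes, and a gene with several probes was represented by its most counted one. All 9 genes, and all 22 probes, passed the filter on low counts, as did 26365 probes of 19020 genes in all. Their transcripts were more abundant in crypt than in villus. Over the dose trend, calls were made in villus, where *Brip1* rose on both days and *Fanci* at day 91. *Fancb* and *Blm* were called lower there at day 8, where some dose groups had no counts. At 60 ppm and day 91, *Fancb* was called higher in villus, against untreated villi without counts. None of the 9 slopes was called different between crypt and villus in the fit of all groups. *Fanci* was called over the crypt trend in 3 of 13 alternative fits at day 8 and in 4 of 12 at day 91.

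RNA came from fixed, paraffin-embedded duodenum of wildtype female B6C3F1 mice that drank water with sodium dichromate dihydrate at 0, 0.1, 1.4, 5, 20, 60, or 180 ppm Cr(VI). Exposure lasted 7 or 90 days (days 8 and 91), and a crypt library was made from what was left of a section once the villi had been cut away, and a villus library from a neighboring section without its crypts. RNA was measured with TempO-Seq, an assay that counts ligated pairs of detector oligonucleotides for each target transcript. There were 71 crypt and 66 villus libraries from 71 mice, in 28 groups of compartment, dose, and day. Each group held 5 libraries, except crypt at 0.1 ppm and day 8 with 6, and villus at 5, 20, and 180 ppm and day 8 and untreated villus at day 91 with 4 each. Mice were untreated at 0 ppm, ages were not given in the labels, and the other groups differed from the untreated mice of the same day in dose only. Total counts ran from 1463938 to 7199801 per library, with a median of 3592983. Levels are given in CPM, counts scaled to a common library size, so that 3 counts, taken here as the floor of a library, stood for 0.612 CPM on average in crypt at 180 ppm and day 91 and for 1.34 CPM in untreated villus at day 91.

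The Fanconi anemia pathway repairs crosslinks between the strands of DNA that block replication. A core complex with ubiquitin ligase activity, to which Fanca and Fancb belong, attaches ubiquitin to the paired Fanci and Fancd2 proteins, and nucleases then open the crosslink. The resulting break is mended by homologous recombination, in which Brca1, Palb2, and Brca2 prepare single-stranded DNA for pairing with an intact copy and the helicases Brip1 and Blm unwind DNA structures. Many of these genes are transcribed when cells replicate DNA, and in the small intestine division takes place in the crypt, from which cells move up the villus.

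Sequence near the start of transcription is shown for the 4 genes whose RefSeq promoter held an E2F motif and for the CCAAT boxes of *Brip1*, which was called over dose in villus on both days, since the levels of these genes are set beside those of cell cycle genes further on. RefSeq windows on GRCm38.p6, from 250 bases before to 50 bases after the start, were at hand for 8 of the 9 genes, and *Fancd2* was not analysed here. The motifs TTCCCGC and TTGGCGC, forms of the E2F site, were searched on both strands. They were found in 4 of the 8 windows and in 6.81% of all 32851 windows. CCAAT, the NF-Y box, was found in 6 of 8 windows (also those of *Fanca*, *Brca1*, *Palb2*, *Fancb*, and *Blm*, whose boxes are not shown) and 37.4% of all, and GGGCGG, the Sp1 box, in 6 of 8 and 35.7%. TTTGAA, one form of the CHR element of G2 and M phase genes, was found in none of the 8 and in 17.9% of all. These matches are descriptions of letters and not of bound sites. Each sequence reads 5′ to 3′ on the strand of the gene, with E2F letters in capitals (GCGGGAA or GCGCCAA, both motifs as read on the other strand) for *Fanci*, *Brca1*, *Brca2*, and *Fancb* and the reversed CCAAT box (ATTGG) in capitals for *Brip1*.
*Fanci*, chr7:79392345-79392373, + strand, bases 8 to 36 after the start: cgtggagtagaGCGGGAAttttggaagga
*Brca1*, chr11:101551917-101551945, − strand, bases 11 to 39 after the start: gctagcgctagGCGCCAAgcggccggttt
*Brca2*, chr5:150522442-150522470, + strand, upstream of the start: tttaggccacaGCGGGAAacagacacaca
*Fancb*, chrX:164980409-164980437, + strand, upstream of the start: ccggggtagagGCGGGAAtaagtgctctg
*Brip1*, chr11:86201212-86201303, − strand, upstream of the start: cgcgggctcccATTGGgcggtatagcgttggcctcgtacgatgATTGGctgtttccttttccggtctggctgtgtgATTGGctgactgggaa
The genes themselves lie, in GENCODE M21 on GRCm38, at chr7:79391929-79450264 (*Fanci*), chr6:113531682-113597017 (*Fancd2*), chr8:123268300-123318576 (*Fanca*), chr11:101488764-101551955 (*Brca1*), chr5:150522630-150570329 (*Brca2*), chr7:122107262-122132985 (*Palb2*), chr11:86058138-86201193 (*Brip1*), chrX:164980592-164997272 (*Fancb*), and chr7:80454733-80535119 (*Blm*). The RefSeq starts from which the bases are counted can differ from these ends, and that of *Fanci* lies downstream of the first base of the GENCODE gene.

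Libraries of 2 untreated mice at day 8 stood apart from their groups. The crypt library of mouse 49 held 2487 CPM for 12 crypt marker genes but 71309 CPM for 13 villus marker genes, while the other untreated crypt libraries held 8885 to 32142 and 27198 to 41626 CPM. Conversely, the villus library of mouse 48 held 20418 CPM for the crypt marker genes but 46072 CPM for the villus ones, against 2468 to 9346 and 68145 to 89315 CPM in the other untreated villus libraries. Results at day 8 are therefore given without these mice wherever that changed a call. Among exposed villi of that day, the library of mouse 447 at 60 ppm held 8303 CPM of crypt markers, 726 CPM of 20 G2 and M phase genes, and 2654 CPM of 12 smooth muscle and fibroblast genes, while the others of its group held 260 to 2816, 201 to 434, and 510 to 991 CPM. At day 91, the untreated crypt of mouse 5 held 198699 CPM of 19 pancreatic acinar genes, where the others of its group held 1100 to 29749 CPM. The villus of mouse 84 at 0.1 ppm and day 91 held 253107 CPM of them, where the others held 5932 to 45054 CPM. With the compartments pooled over dose, 10 of 12 crypt markers were higher in crypt and 10 of 13 villus markers were higher in villus at day 8, and 11 of 12 and 11 of 13 at day 91. Of 12 smooth muscle and fibroblast genes, 11 were also higher in crypt on each day, so crypt libraries held more RNA of that tissue too, and its part in the differences below was not tested.

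The first comparison asked where along the mucosa these genes were expressed. All 9 were higher in crypt than in villus at day 8 and 8 of 9 at day 91, where the exception was *Palb2*, which encodes the bridge between Brca1 and Brca2. A gene was called where the edgeR adjusted p fell under 0.1. Of all probes, 24.8% were higher and 10.5% lower in crypt at day 8, and 23.2% and 11.6% at day 91. The median difference of the 9 genes was 1.52 on the log2 scale at day 8 and 2.0 at day 91, against 0.31 and 0.14 over all probes. In these bulk samples, fewer cells of a type and less RNA per cell cannot be told apart.

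*Fanci* and *Fancd2*, the pair that receives ubiquitin, showed this plainly. *Fanci* averaged 25.3 CPM over the 7 crypt groups and 9.80 CPM over the 7 villus groups at day 8, a log2 difference of 1.46 ± 0.25 (SE, adjusted p = 4.98e-07), and 24.2 and 7.81 CPM at day 91, a difference of 2.0 ± 0.25 (adjusted p = 1.97e-11). Within mice, *Fanci* was higher in crypt in 30 of 32 at day 8 and in 34 of 34 at day 91. *Fancd2* averaged 12.5 and 4.45 CPM at day 8 (1.92 ± 0.40, adjusted p = 5.07e-05) and 11 and 2.61 CPM at day 91 (2.22 ± 0.40, adjusted p = 1.81e-06). It was higher in crypt in 29 of 32 and 33 of 34 mice. No crypt library lacked *Fanci*, while 11 of 66 villus libraries had no count of it, and for *Fancd2* these were 2 of 71 and 25 of 66.

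The core complex genes were near the counting floor. *Fanca* had no count in 33 of 71 crypt and 58 of 66 villus libraries, and *Fancb* in 8 and 43. Their mean levels were 1.80 CPM in crypt and 0.634 CPM in villus for *Fanca* and 4.91 and 1.94 CPM for *Fancb* at day 8, and 0.869 and 0.225 CPM and 4.16 and 0.746 CPM at day 91. Both were called higher in crypt on both days (adjusted p = 0.0016 and 0.000706 for *Fanca*, and 0.006 and 1.05e-06 for *Fancb*). Several of their villus groups had no library above 3 counts, so that no standard error of the fitted difference is given, and the ratios of mean CPM were 2.84 and 3.86 for *Fanca* and 2.54 and 5.59 for *Fancb*. At day 91 the crypt library of untreated mouse 8 held 5.90 CPM of *Fanca*, while the other 4 untreated crypts and the 4 untreated villi held none. Without that library, groups without any count stood on both sides of the difference, in crypt as well as in villus. The standard error could then not be estimated, so that *Fanca* at day 91 could not be tested without mouse 8. With the mouse as a block it could not be tested either. At day 8, the call was lost when the probes of a gene were summed (adjusted p = 0.198).

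The recombination genes followed the same order of compartments. *Brca1*, a ubiquitin ligase subunit that acts early at breaks, was higher in crypt by 1.52 ± 0.33 at day 8 (16.8 and 5.93 CPM, adjusted p = 8.21e-05) and by 1.89 ± 0.33 at day 91 (14.4 and 4.15 CPM, adjusted p = 6.58e-07). *Brca2*, a central factor of homologous recombination, was higher by 1.27 ± 0.42 (13.3 and 6.65 CPM, adjusted p = 0.0143, and 2.0 without the villus of mouse 447) and by 2.09 ± 0.43 (13.4 and 3.44 CPM, adjusted p = 3.05e-05). *Palb2* was higher by 1.43 ± 0.48 at day 8 (adjusted p = 0.0143), and by 2.19 without the villus of mouse 369. Its 0.93 ± 0.46 at day 91 missed the threshold (adjusted p = 0.129). It passed in 5 of 13 alternatives, among them the mouse as a block (1.60, adjusted p = 0.0115), and without the villus of mouse 321 (0.0649) or mouse 3 (0.0619). *Blm*, a helicase that undoes crossed DNA intermediates, averaged 7.33 and 2.61 CPM at day 8 (adjusted p = 1.08e-05) and 5.15 and 1.89 CPM at day 91 (1.61 ± 0.49, adjusted p = 0.00647). Across mice, *Brca1* was higher in crypt in 27 of 32 and 33 of 34, *Brca2* in 23 and 28, *Palb2* in 25 and 24, and *Blm* in 26 and 28.

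*Brip1*, a helicase that binds Brca1, differed least. It averaged 21.1 CPM in crypt and 16.4 CPM in villus at day 8, a difference of 0.47 ± 0.20 (adjusted p = 0.0719), and 19.3 and 14.4 CPM at day 91, a difference of 0.57 ± 0.20 (adjusted p = 0.0222). It was higher in crypt in 20 of 32 and 22 of 34 mice. No crypt library and 3 of 66 villus libraries lacked it. Its call at day 8 was lost when the villus library of mouse 368 (adjusted p = 0.103) or of mouse 526 (adjusted p = 0.112) was left out, and with the logarithm of depth as a covariate neither day was called (adjusted p = 0.232 and 0.15).

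**Figure D1:**
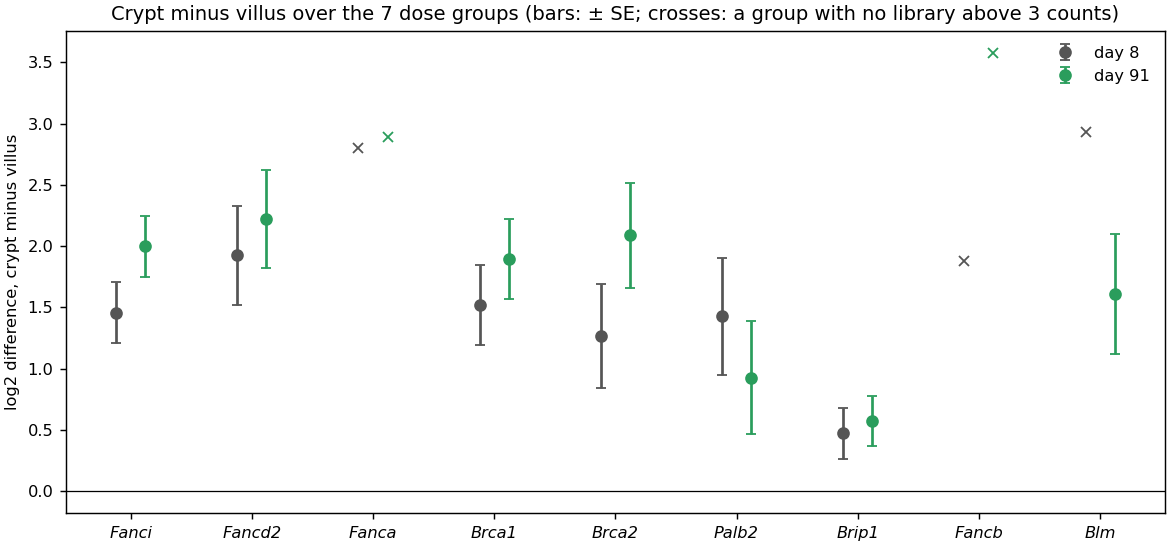
Log2 difference of crypt minus villus over the 7 dose groups for the 9 genes at day 8 and day 91, with standard errors as bars and crosses for genes with a group that had no library above 3 counts. All points lie above 0, from 0.47 for *Brip1* at day 8 to 3.58 for *Fancb* at day 91, and each was called except *Palb2* at day 91.

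Crypt libraries also had more probes detected, which bears on genes this close to the floor. When probe detection, counted after thinning to one depth, was added as a covariate, 5 of 9 genes (*Fanci*, *Fancd2*, *Fanca*, *Brca1*, and *Blm*) stayed higher in crypt at day 8, where 9.96% of all probes did, and the difference of *Brca2* was 0.22. Among untreated mice alone, none of the 9 was called at day 8, where 0.0266% of all probes were higher in crypt and 2 of the 9 genes, like 15.9% of all probes, had an unadjusted p under 0.05. In untreated mice at day 91, *Fanci* (2.91 ± 0.77, adjusted p = 0.00906) and *Fancb* (adjusted p = 0.047, no count in the 4 villi) were called, beside 6.75% of all probes. Which genes passed there depended on the fit. *Fanci* passed in 10 of 10 alternatives, *Fancb* in 9, *Fancd2* in 5, and *Brca2* in 3. *Brca1* and *Brip1* passed in 2 each, *Blm* in 1, *Palb2* in none, and *Fanca* in 1 of 7.

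The second comparison asked how the villus responded to dose at day 91. *Fanci* and *Brip1* rose over the 7 doses, 8 of the 9 slopes were positive, and none of the 9 genes fell. Slopes are log2 changes per dose step, with the doses taken as equally spaced steps. Among all probes, 22.8% rose and 8.11% fell, and with DESeq2 size factors 17.3% rose and 12.5% fell, so 2 of 9 is close to the share of all probes in these fits. With the number of probes detected as a covariate, 9.79% of all probes rose and 6.13% fell. *Fanci* and *Brip1* were each called in 13 of 13 alternatives. The median slope was 0.29 for the 9 genes and 0.07 for all probes.

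*Fanci* was absent from 3 of the 4 untreated villi at day 91 and measured 7.28 CPM (19 counts) in mouse 6. At 0.1 ppm the 5 villi held 0, 6.22, 0, 0, and 1.57 CPM, and at 1.4 ppm 6.29, 3.63, 8.72, 0, and 0 CPM. From 5 ppm every villus had counts, with 5.60, 8.76, 3.98, 11.2, and 11.4 CPM at 5 ppm and 10.6, 4.81, 12.7, 14.4, and 10.9 CPM at 20 ppm. These 2 groups overlapped the untreated villi only through mouse 6. At 60 ppm *Fanci* measured 17.0, 35.4, 9.17, 19.3, and 8.16 CPM, and at 180 ppm 14.4, 8.38, 10.4, 10.2, and 11 CPM, in both cases above all 4 untreated villi. Such a separation was seen for 10% of all probes at 60 ppm and 5.7% at 180 ppm.

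The slope of *Fanci* was 0.57 ± 0.10 (adjusted p = 3.01e-06). Against untreated villi, its log2 difference at 5 ppm was 2.06 ± 0.76 (adjusted p = 0.0833). At 20 ppm it was 2.45 ± 0.76 (adjusted p = 0.0227). The largest fitted difference of these doses, 3.19 ± 0.77, was seen at 60 ppm (adjusted p = 0.00178), and 180 ppm gave 2.48 ± 0.76 (adjusted p = 0.0227). These doses share the untreated villi. Of all probes, 8.8%, 11.1%, 10.4%, and 9.44% were called higher at the 4 doses. With DESeq2 size factors, the 10.4% higher and 3.91% lower at 60 ppm became 5.91% and 7.21%, and the 9.44% and 4.48% at 180 ppm became 5.99% and 6.62%. Without mouse 6, the other 3 untreated villi had no count of *Fanci*, and the fitted slope of 1.19 then depended on the prior count, as did the differences at each dose. The call at 5 ppm held in 5 of 10 alternatives (adjusted p up to 0.285) and that at 20 ppm in 7 of 10 (up to 0.185). The call at 180 ppm was lost without the untreated villus of mouse 3 (adjusted p = 0.106) or of mouse 5 (adjusted p = 0.109), and in a fit of these libraries alone (adjusted p = 0.179). Untreated villi at day 91 were also among the shallowest libraries, with 1667014 to 2678299 counts against 2902207 to 6749336 at 60 ppm. With counts thinned to the smallest total of any library, 1463938, the slope was 0.51 ± 0.10 (adjusted p = 2.11e-05), with the logarithm of depth as a covariate it was 0.54 ± 0.11 (adjusted p = 4.01e-05), and with the number of probes detected it was 0.49 ± 0.11 (adjusted p = 0.000276).

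*Brip1* measured 19.4, 0, 6.90, and 7.65 CPM in the 4 untreated villi at day 91. At 60 ppm its 5 villi held 25.5, 22.5, 35.5, 27.9, and 14.4 CPM, and at 180 ppm 30.2, 16.1, 17.3, 9.56, and 37.8 CPM. Both groups overlapped the untreated villi because of mouse 3, which had 19.4 CPM. Its slope was 0.29 ± 0.08 (adjusted p = 0.0027), and the differences from untreated villi were 1.56 ± 0.59 at 60 ppm (adjusted p = 0.0763) and 1.38 ± 0.59 at 180 ppm (adjusted p = 0.122). The call at 60 ppm was lost in 6 of the 9 fits that left out 1 of these libraries, with an adjusted p of up to 0.27, while the slope was called in all 19 such fits.

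The other 7 genes had low and scattered villus counts at day 91. *Fancb* had none in the 4 untreated villi and 1.77, 0, 0, 4.16, and 3.14 CPM at 60 ppm, a mean 1.35-fold the floor of 3 counts per library in untreated villi. It was called higher at 60 ppm (adjusted p = 0.0805), with overlapping groups. This call held in 3 of the 9 fits that left out 1 of these libraries, with an adjusted p of up to 0.155. *Brca1* measured 12, 0, 0, and 2.68 CPM untreated and 14.5, 4.98, 5.35, 5.05, and 10.7 CPM at 60 ppm, and its slope of 0.22 ± 0.12 missed the threshold (adjusted p = 0.191). *Blm* measured 0, 0, 0, and 3.06 CPM untreated and 2.88, 0.233, 4.15, 2.31, and 8.74 CPM at 180 ppm, with a slope of 0.33 ± 0.19 (adjusted p = 0.203). Both were called by limma-trend on log2 CPM (0.30 and 0.32, adjusted p = 0.0251 and 0.047), and *Blm* also with thinned counts (0.42, adjusted p = 0.0622). The slopes of *Fancd2* (0.22 ± 0.15), *Palb2* (0.09 ± 0.17), and *Brca2* (−0.04 ± 0.16) had adjusted p values of 0.329, 0.861, and 1, and *Fanca* had counts in 4 of the 34 villus libraries of that day.

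One untreated villus set several of these values. Mouse 7 held the only counts among the 4 untreated villi of *Fancd2* (3.44 CPM), *Brca2* (10.7 CPM), and *Blm* (3.06 CPM). Its villus library also had 533 CPM of 20 G2 and M phase genes, where the other 3 had 59.4 to 142 CPM, and 3663 CPM of crypt markers, where the others had 709 to 1920 CPM. Without it, the slopes of *Fancd2*, *Brca2*, and *Blm* were called as well (adjusted p = 0.0228, 0.09, and 0.0223) against an untreated group with no counts, so that 5 of the 9 genes were then called higher, beside 23.4% of all probes. Without the villus of mouse 3, *Brca1* was called (0.42 ± 0.14, adjusted p = 0.0221). Exposed villi of day 91 also held such libraries, mouse 402 at 60 ppm with 733 CPM of the G2 and M phase genes and 3858 CPM of crypt markers, and mouse 243 at 5 ppm with 531 and 5746 CPM. With the villi of mice 7, 243, and 402 all left out, 4 of the 9 slopes were called, *Fanci* (0.51 ± 0.11, adjusted p = 9.64e-05), *Brip1* (0.27 ± 0.08, adjusted p = 0.013), *Fancd2* (adjusted p = 0.0475), and *Blm* (adjusted p = 0.0284), the last 2 against untreated villi without counts, beside 19.8% of all probes. At the separate doses the call of *Fanci* at 60 ppm then held (2.74 ± 0.85, adjusted p = 0.0251), and its calls at 5, 20, and 180 ppm were lost (adjusted p = 0.19, 0.116, and 0.106), as were those of *Brip1* (adjusted p = 0.185) and *Fancb* (0.162) at 60 ppm. At 180 ppm this fit called *Fancd2* (adjusted p = 0.0407) and *Blm* (0.0665) higher instead, beside 8.85% of all probes. Both calls were made against untreated villi without counts.

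**Figure D2:**
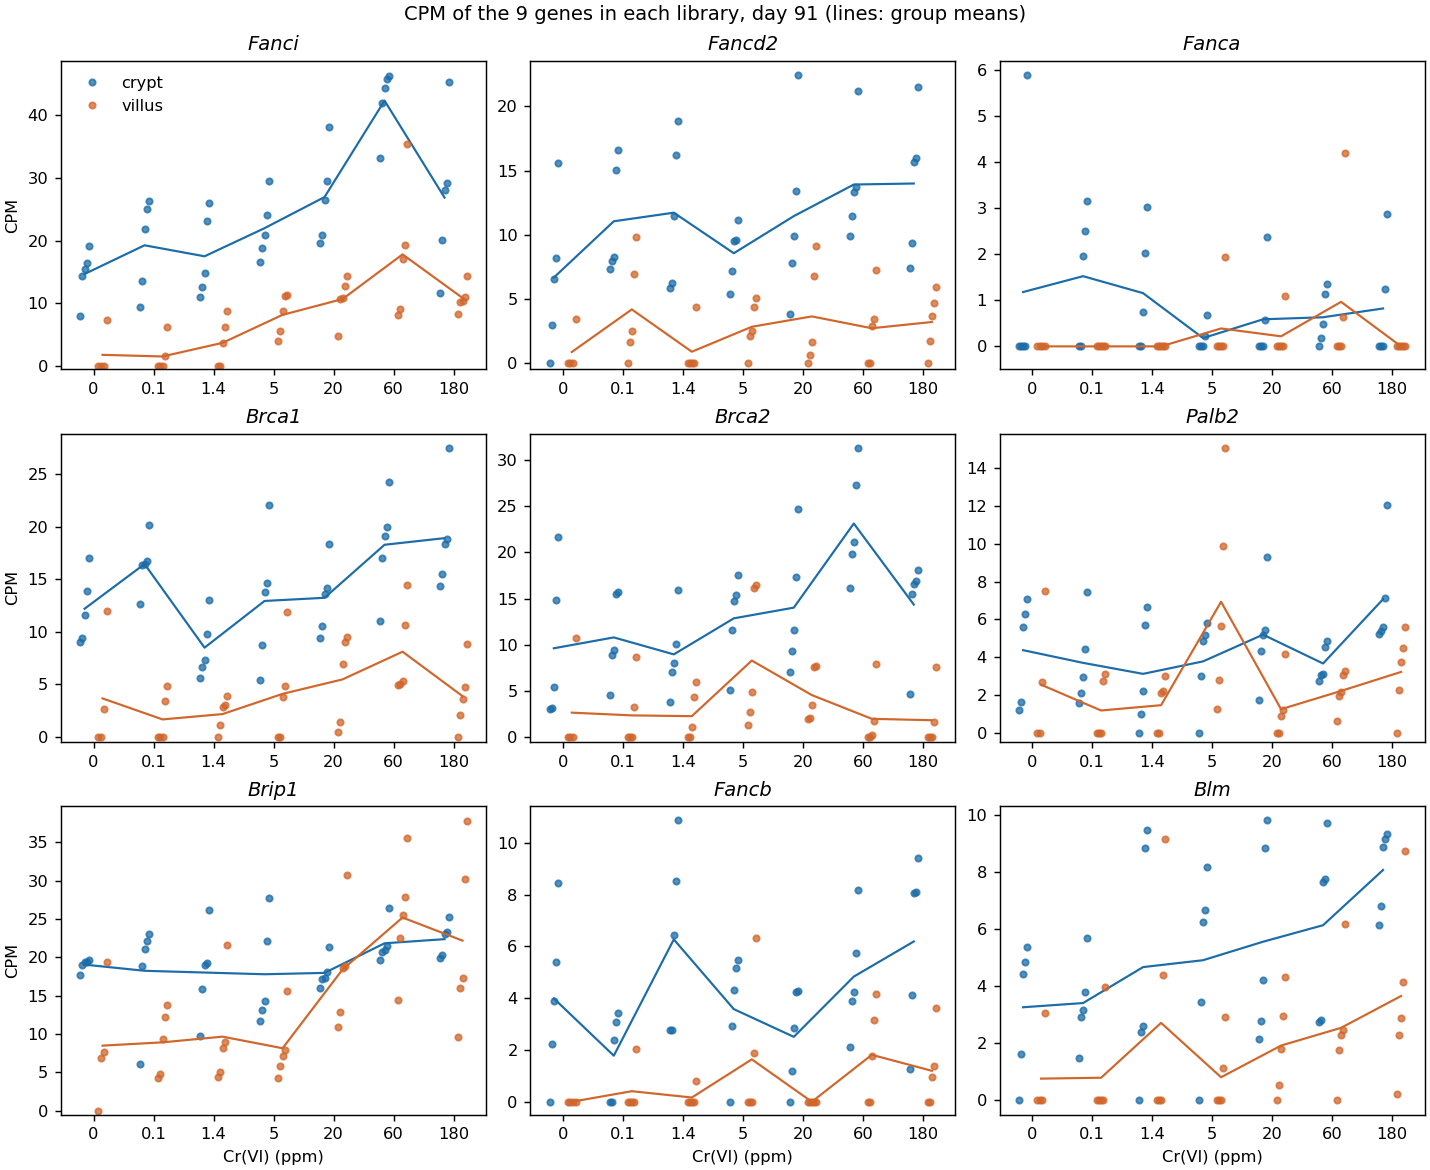
CPM of each gene in every library at day 91 against Cr(VI) in drinking water (ppm, equally spaced), with crypt in blue, villus in orange, and lines through group means. In the *Fanci* panel all 10 villi at 60 and 180 ppm lie above the 4 untreated villi, and in the *Brip1* panel villus means rise from 8.50 CPM untreated to 25.2 CPM at 60 ppm while crypt means stay between 17.8 and 22.4 CPM.

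At day 8 the villus showed another pattern. *Brip1* rose over the doses, *Fancb* and *Blm* were called lower, and *Fanci* had a slope near 0. Of all probes, 5.77% rose and 9.9% fell. *Brip1* measured 0, 7.04, 9.71, 7.23, and 10.6 CPM in untreated villi and 16.0, 26.7, 41.2, 17.8, and 27.2 CPM at 60 ppm, with no overlap, as for 0.584% of all probes. At 180 ppm it measured 7.21, 41.8, 26.4, and 12.9 CPM, and 3 of these 4 villi were above every untreated one. Its slope was 0.26 ± 0.07 (adjusted p = 0.0121), and the differences were 1.88 ± 0.55 at 60 ppm (adjusted p = 0.0331) and 1.66 ± 0.57 at 180 ppm (adjusted p = 0.0942), where 2.36% and 1.88% of all probes were called higher. Without mice 48 and 49 the slope was 0.29 ± 0.09 (adjusted p = 0.0193) and the call at 180 ppm was lost (1.91 ± 0.69, adjusted p = 0.135). When 1 of the libraries compared was left out, the call at 60 ppm held in 9 of 10 fits and that at 180 ppm in 4 of 9 (adjusted p up to 0.115 and 0.289). In a fit of the day 8 villi alone, neither the slope (adjusted p = 0.189) nor the difference at 60 ppm (adjusted p = 0.284) was called.

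The lower calls at day 8 rested on groups without counts. *Blm* measured 4.43, 0, 5.13, 0, and 3.84 CPM in untreated villi, had no count in the 4 villi at 20 ppm and the 5 at 60 ppm, and measured 6.55, 11.6, 0, and 0 CPM at 180 ppm. It was called lower over the trend (adjusted p = 0.0387) and at 60 ppm (adjusted p = 0.0349, beside 3.8% of all probes called lower), although untreated and exposed villi overlapped at 0. Its untreated mean was 2.23-fold the floor of 3 counts per library at 60 ppm. The call at 60 ppm held in 9 of 13 alternatives and was lost with the probes of the gene summed (−0.46, adjusted p = 0.942), limma-trend (0.21), separate fits (0.221), and edgeR's default form (0.164). *Fancb* measured 6.84, 0, 0.54, 0, and 3.84 CPM untreated, had counts in 1 of 5 villi at 60 ppm, and had none at 180 ppm. Its untreated mean was 2.33-fold the floor of 3 counts per library at 180 ppm. It was called lower at 180 ppm (adjusted p = 0.0951, beside 2.84% of all probes) and over the trend (adjusted p = 0.0448). Its fitted slope of −0.71 became −1.08 without mouse 449, the 1 villus at 60 ppm with counts. The call at 180 ppm held in 3 of 9 fits that left out 1 library (adjusted p up to 0.196), and the trend was lost without the villus of mouse 46 (adjusted p = 0.106). With edgeR's default quasi-likelihood form neither trend was called (adjusted p = 0.174 and 0.178), nor was it with limma-trend (0.416 and 0.309) or in separate fits (0.189 and 0.213). The trend of *Blm* was also lost with summed probes (−0.17, adjusted p = 0.562), and that of *Fancb* with thinned counts (adjusted p = 0.107). *Fanci* measured 6.84, 0, 17.5, 9.79, and 12.7 CPM in untreated villi and 17.7, 3.32, 21.9, and 17.5 CPM at 180 ppm, with a slope of 0.03 ± 0.09 (adjusted p = 1). *Brca2* was called higher at 180 ppm in 2 of 13 alternatives and over the trend in 1 of 13.

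**Figure D3:**
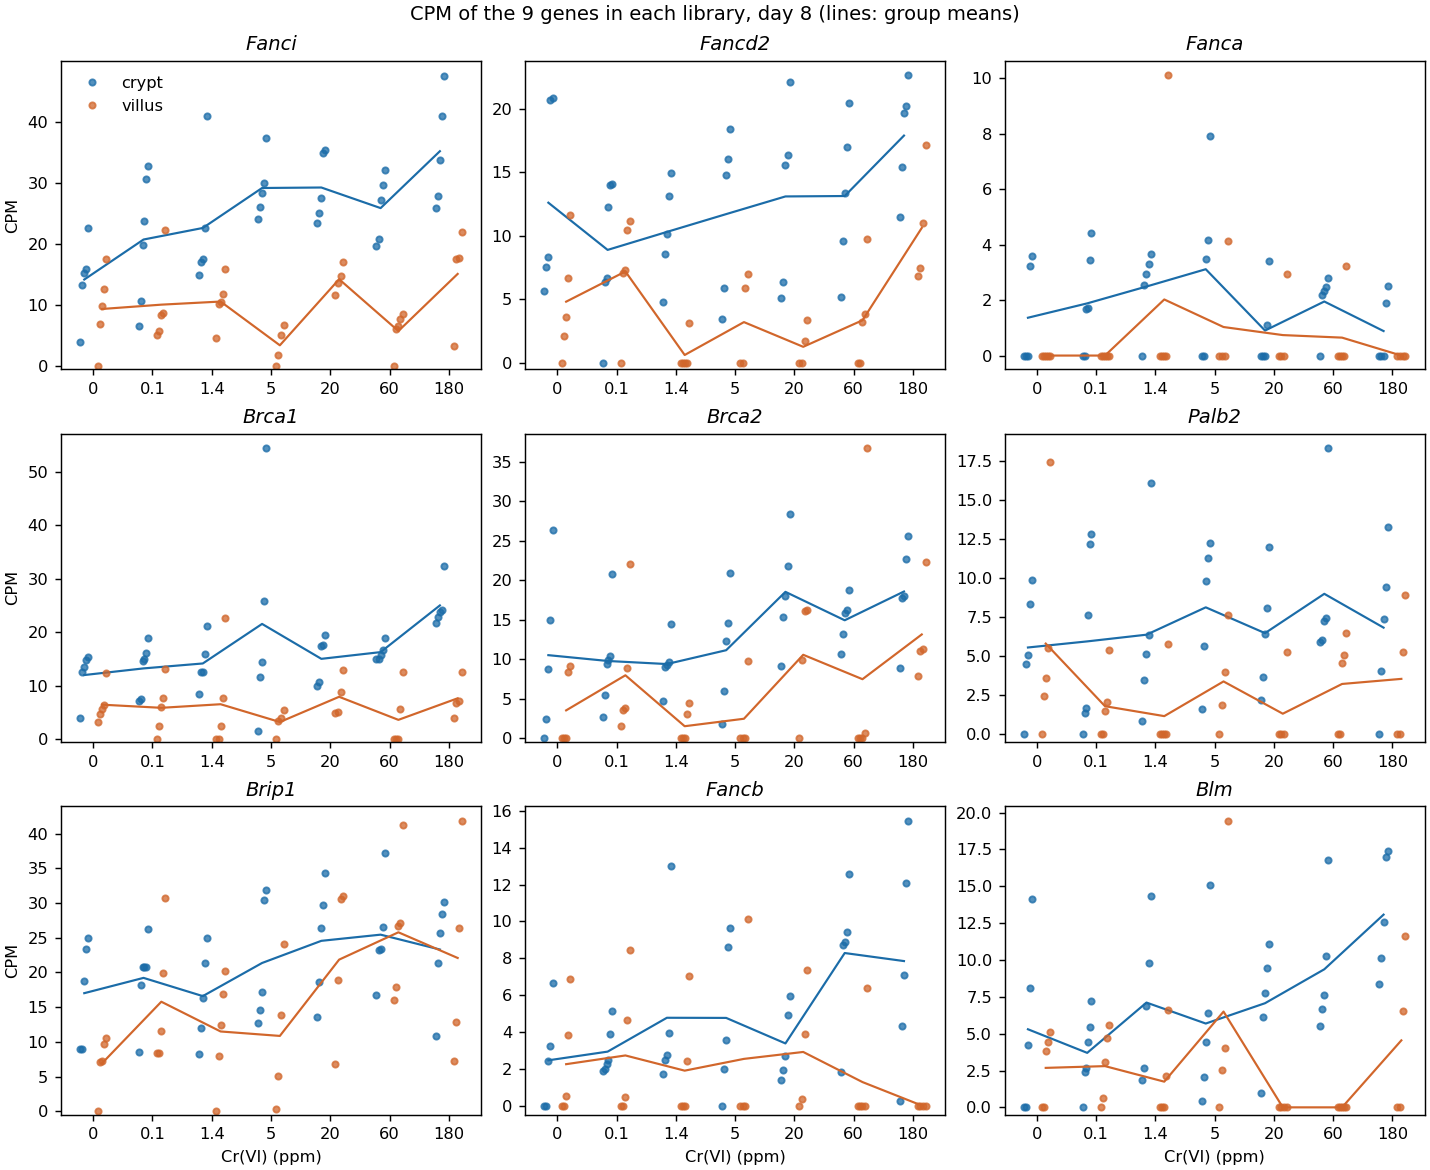
CPM of each gene in every library at day 8 against Cr(VI) in drinking water (ppm, equally spaced), with crypt in blue, villus in orange, and lines through group means. In the *Brip1* panel the 5 villi at 60 ppm lie between 16.0 and 41.2 CPM, above the 5 untreated villi, and in the *Blm* panel no villus at 20 or 60 ppm has a count.

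In crypt, none of the 9 genes was called at any dose or over the trend on either day, although 8 of 9 slopes were positive on each day and only that of *Fanca* was negative. At day 8, 3.33% of all probes rose and 5.51% fell over the trend, and at day 91 9.55% rose and 4.63% fell (7.01% and 6.97% with DESeq2 size factors). On each day 1 of the 9 genes, *Fanci*, had an unadjusted p under 0.05 over the trend, as did 17.4% and 21.8% of all probes. At the separate doses, the share of all probes called higher at day 8 was 0.00379% for each dose up to 5 ppm and 0.0152%, 0.341%, and 0.474% for the doses above it. At day 91 it was 0% up to 5 ppm and 0.148%, 6.71%, and 2.16% above. The median slope of the 9 genes was 0.14 at day 8 and 0.12 at day 91, against −0.01 and 0.01 for all probes.

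*Fanci* measured 15.9, 22.7, 13.2, 3.99, and 15.2 CPM in untreated crypts at day 8 and 25.8, 40.9, 27.8, 47.5, and 33.7 CPM at 180 ppm, with no overlap. It also lay above all untreated crypts at 5 ppm (24.1 to 37.3 CPM) and 20 ppm (23.4 to 35.3 CPM) of day 8, as did 0.307% and 1.04% of all probes, and at 20 ppm of day 91 (19.7 to 38.1 CPM), as did 2.56%. Its difference at 180 ppm and day 8 was 1.30 ± 0.62 (adjusted p = 0.251) and its slope 0.18 ± 0.08 (adjusted p = 0.221). At day 91 it measured 15.5, 19.1, 7.97, 16.4, and 14.4 CPM untreated and 46.2, 44.2, 41.9, 33.1, and 45.7 CPM at 60 ppm, again apart, and 28.1, 45.2, 11.7, 20.1, and 29.1 CPM at 180 ppm, where the groups overlapped. The difference at 60 ppm was 1.53 ± 0.62 (adjusted p = 0.139), where 6.71% of all probes rose and 10% had exposed libraries all above the untreated ones, and the slope was 0.20 ± 0.08 (adjusted p = 0.118). With DESeq2 size factors, the 6.71% higher and 2.14% lower at 60 ppm became 3.75% and 4.18%.

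Whether *Fanci* passed in crypt depended on the test. Its slope was called with DESeq2 (adjusted p = 0.0534 at day 8 and 0.0721 at day 91), with edgeR's default form (0.0308 and 0.00356), and in separate fits of each compartment and day (0.0136 and 0.000177). At day 91 it was also called with summed probes (0.0869) or without the crypt of mouse 485 (0.0875). It was not called with limma-trend (0.155 and 0.159), DESeq2 size factors in edgeR (0.197 and 0.229), or thinned counts (0.254 and 0.223). At day 8 its slope ran from 0.12 with the probes of a gene summed to 0.20 with limma-trend, and it was 0.14 ± 0.09 without mice 48 and 49 (adjusted p = 0.536). The slope of *Blm* in crypt at day 8 was called in 2 of 12 alternatives, limma-trend and edgeR's default form. Among the other genes, *Brca1* at 180 ppm and day 8 measured 23.8, 24.2, 21.8, 32.5, and 22.9 CPM, all above the 13.5, 15.4, 14.8, 3.99, and 12.5 CPM of untreated crypts, and the difference was 1.05 ± 0.82 (adjusted p = 0.662). At day 91, *Blm* at 180 ppm (6.16 to 9.34 CPM) and *Brip1* at 180 ppm (19.9 to 25.2 CPM) lay above their untreated crypts (0 to 5.39 and 17.7 to 19.6 CPM), with differences of 1.29 ± 1.24 and 0.23 ± 0.52. These SE come from the fit of all groups, while the SD of *Brip1* itself was 0.769 CPM in untreated crypts and 2.21 CPM at 180 ppm. Non-overlap at 180 ppm was seen for 1.12% of all probes at day 8 and 3.76% at day 91.

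**Figure D4:**
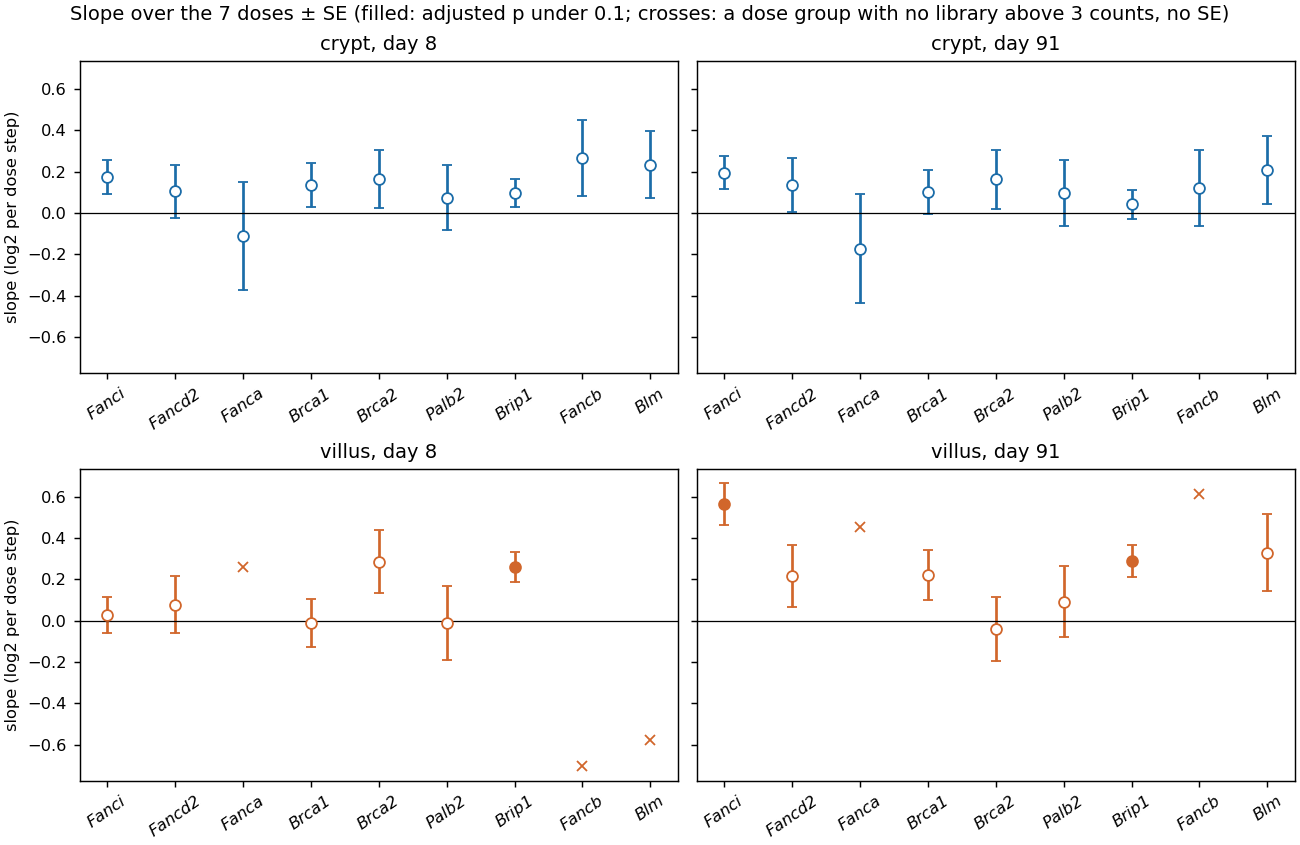
Slope over the 7 doses (log2 per dose step) of the 9 genes in each compartment and day, with standard errors as bars, filled points for adjusted p under 0.1, and crosses for genes with a dose group that had no library above 3 counts. The filled points are *Brip1* in villus at day 8 and *Fanci* and *Brip1* in villus at day 91. In crypt the points other than *Fanca* lie between 0.04 and 0.27.

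The slopes of crypt and villus were then compared directly. None of the 9 genes was called at either day, with 2 of 9 at an unadjusted p under 0.05 on each, as were 9.7% of all probes at day 8 and 13.1% at day 91. At the adjusted threshold, 0.482% of all probes had a higher slope in crypt and 0.307% a lower one at day 8, and 0.296% and 2.29% at day 91. *Fanci* at day 91 came nearest among genes with counts in every group, with a slope lower in crypt by 0.37 ± 0.13 (adjusted p = 0.117). With the mouse as a block it was lower by 0.63 ± 0.13 (adjusted p = 7.74e-05), and *Brip1* was lower by 0.29 ± 0.10 (adjusted p = 0.0905), so that the blocked fit called 2 of 9, beside 5.36% of all probes lower and 0.743% higher in that fit. DESeq2, limma-trend, and summed probes also called *Fanci* (adjusted p = 0.0462, 0.00573, and 0.0921). Among 39 fits that each left out 1 library it was called in 5: without the crypt of mouse 321 (adjusted p = 0.0953), without the villus of mouse 323 (0.0943), mouse 404 (0.0926), or mouse 406 (0.0908), and without the villus of mouse 6 (0.000658), where the untreated villi left had no counts. Of the marker lists, 5 of 12 smooth muscle and fibroblast genes also had lower slopes in crypt at day 91 and none a higher one, with a median of −0.17 against −0.05 for all probes, while none of the 12 crypt markers or of the 20 G2 and M phase genes was called. At that day 1 of 13 villus markers had a higher slope in crypt and 1 of 15 lymphocyte genes a lower one, and at day 8 1 of the 12 smooth muscle and fibroblast genes had a lower slope in crypt and 1 S phase gene a higher one. The part of that tissue in the difference of *Fanci* was not tested.

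Between days, slopes in crypt did not differ for any of the 9 genes, while 1.28% of all probes were steeper and 0.182% shallower at day 91, and none of the 9 had an unadjusted p under 0.05, where 9.33% of all probes had. In villus, *Fanci* was steeper at day 91 than at day 8 by 0.54 ± 0.13 (adjusted p = 0.00562), as were 10.5% of all probes (6.71% with DESeq2 size factors), and 1.17% were shallower. The difference was 1.16 without the untreated villus of mouse 6, which left no count of the gene in that group. *Blm* was also called (0.91, adjusted p = 0.0205), with groups at 0 on day 8, and its value was 1.40 without the untreated villus of mouse 7. With the number of probes detected as a covariate, neither was called (*Fanci* 0.40 ± 0.14, adjusted p = 0.197, and *Blm* adjusted p = 0.159), but *Brca2* was, with a slope lower at day 91 (−0.94 ± 0.26, adjusted p = 0.0647), beside 0.944% of all probes higher and 0.212% lower. DESeq2 also called *Fancb* (1.09, adjusted p = 0.0129), which had groups at 0. For *Fanci* in untreated villi, day 91 minus day 8 was −2.27 ± 0.76, which missed the threshold (adjusted p = 0.116) and passed it in 3 of 10 alternatives, beside 0.398% of all probes called higher and 1.89% lower with all libraries.

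Other probes of the same genes gave a check on the chosen ones. In villus at day 91, 18 of the 22 probes had positive slopes, as did 61.6% of all probes, and 7 were called higher, beside 22.8% of all. Of the 3 *Fanci* probes, the chosen one and a second (0.44 ± 0.15, adjusted p = 0.0236) were called and the third, with few counts, was not (0.28, adjusted p = 0.309). The second *Brip1* probe had a slope of 0.19 (adjusted p = 0.554) and 1836 counts in all libraries, against 9414 for the chosen one. Further probes of *Brca1*, *Brca2*, *Blm*, and *Fancd2*, whose chosen probes were not called, were also called higher. In crypt, 17 of 22 probes had positive slopes at day 8 (46.1% of all probes), with 1 called higher and 1 lower, neither of them a chosen one, beside 3.33% and 5.51% of all. At day 91, 18 had positive slopes (51.8% of all), and none was called, beside 9.55% higher and 4.63% lower. Day 8 villus had 10 of 22 probes with positive slopes (40.1% of all probes), with 1 called higher and 3 lower beside 5.77% and 9.9% of all. The called probes there were the chosen ones of *Brip1*, *Fancb*, and *Blm* and a further one of *Fancd2* (−0.48 ± 0.19, adjusted p = 0.0867), and the other *Blm* probe, with 382 counts in all libraries, had groups without counts.

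**Figure D5:**
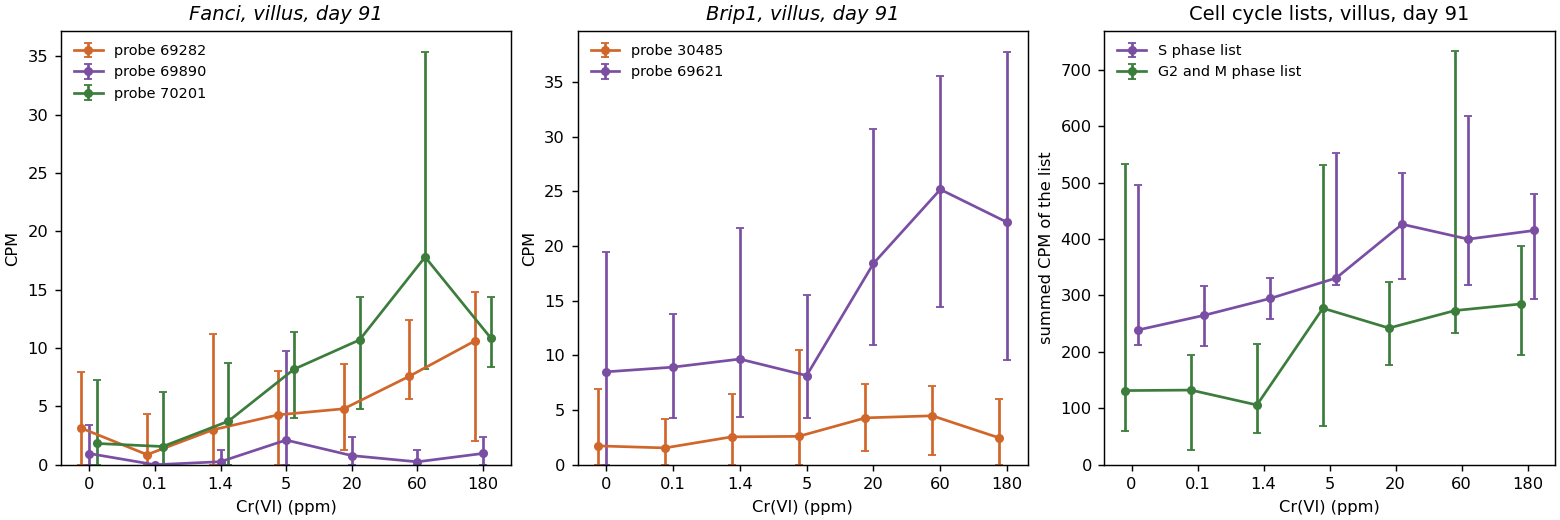
Villus at day 91 against Cr(VI) in drinking water (ppm, equally spaced): CPM of the 3 *Fanci* probes, CPM of the 2 *Brip1* probes, and summed CPM of 21 S phase and 20 G2 and M phase genes, with points at group means (genes) or medians (lists) and bars from the lowest to the highest library. The chosen *Fanci* probe rises from a mean of 1.82 CPM untreated to 17.8 CPM at 60 ppm, and the median of the G2 and M phase list from 131 to 273 CPM.

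The rest of the pathway was read from lists of Fanconi anemia and recombination genes, 68 of whose 69 genes outside the 9 were tested. In villus at day 91, 16 of the 68 rose and 7 fell over the trend, with a median slope of 0.07, against 0.07 for all probes. Both counts were close to the shares of all probes, 22.8% higher and 8.11% lower, so the genes named next are single calls and no result about the lists. Among partners of the Fanci and Fancd2 pair, *Wdr48*, the cofactor of their deubiquitinase, rose (0.11 ± 0.03, adjusted p = 0.00532), and *Ube2t*, the ubiquitin-conjugating enzyme of the core complex, rose from 0.862 ± 1.10 CPM untreated to 7.28 ± 7.99 CPM at 60 ppm (SD, n = 4 and 5, slope 0.46 ± 0.12, adjusted p = 0.00188). The core subunits *Fancf* and *Fancg* fell (adjusted p = 0.0386 and 0.0481), *Fancg* from 13.5 ± 4.44 to 3.60 ± 2.78 CPM at 180 ppm. Among nuclease genes, *Ercc1* rose (0.32 ± 0.08, adjusted p = 0.000604), while *Slx4*, a scaffold for nucleases, fell to no counts at 180 ppm.

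In the recombination lists of day 91 villus, 4 of 10 strand exchange genes rose and 1 fell, and the median slope of that list was 0.28. Of all probes, 22.8% rose and 8.11% fell over this trend, with a median of 0.07, and the lists were not tested as sets. The medians of the other lists, which count the 9 genes where they belong, were 0.13 for BRCA complexes (5 of 16 rose and 1 fell), 0.07 for end resection (2 of 9 and 1), 0.06 for helicases and junction resolution (3 of 13 and 1), 0.16 for the Fanci and Fancd2 pair and its deubiquitinase (2 of 4 and none), 0.01 for the core complex (1 of 12 and 2), and −0.06 for nucleases and lesion bypass (1 of 13 and 1). *Swi5* rose (0.23 ± 0.04, adjusted p = 2.39e-07), and *Sfr1*, whose product forms a complex with Swi5, rose as well (0.11 ± 0.03, adjusted p = 0.00413). *Sem1*, a small partner of Brca2, rose from 71.9 ± 29.3 to 338 ± 38.3 CPM at 60 ppm (0.35 ± 0.04, adjusted p = 2.97e-13). *Abraxas1* of the BRCA1-A complex rose (0.32 ± 0.10) and *Uimc1* of the same complex fell (−0.10 ± 0.03). For end resection, *Rpa3* rose (0.23 ± 0.06) and *Rpa1* fell (−0.17 ± 0.05), and *Rbbp8*, the resection factor CtIP, was called higher from untreated villi without counts to 6.87 ± 4.96 CPM at 60 ppm. Among helicases and resolvases, *Rmi1*, a partner of Blm, rose (0.18 ± 0.04, adjusted p = 0.000111), *Wrn* fell (−0.20 ± 0.04, adjusted p = 0.000181), and *Gen1* was called higher with 1.29 ± 2.40 CPM at 180 ppm and no counts untreated. *Mcm9*, a helicase in recombination, fell (−0.23 ± 0.04, adjusted p = 3.82e-06).

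Fewer of the 68 genes were called over the other dose trends, a difference that was not tested. In villus at day 8, none rose and 5 fell, beside 5.77% and 9.9% of all probes, among them *Wrn* (−0.21 ± 0.05, adjusted p = 0.000406), *Mcm9* (−0.16 ± 0.04, adjusted p = 0.00423), and *Slx4* and *Bard1*, which had no counts at 180 ppm. In crypt at day 8, 2 rose and 1 fell, beside 3.33% and 5.51% of all probes. *Fancm* was among those called higher, with no counts untreated, and *Mcm9* fell (−0.11 ± 0.04, adjusted p = 0.0698). In crypt at day 91, 6 rose and *Mcm9* fell, beside 9.55% and 4.63% of all probes. *Swi5* (0.18 ± 0.03, adjusted p = 3.02e-05) and *Sem1* (0.17 ± 0.03, adjusted p = 9.66e-05) were among those that rose, and *Sfr1*, *Wdr48*, and *Babam1* rose as well. Crypt exceeded villus for 39 of 68 genes at day 8, where 24.8% of all probes were higher, and for 42 of 68 at day 91, where 23.2% were, and 1 of the 68 was lower at day 91. The median difference was 0.79 and 0.72, against 0.31 and 0.14 for all probes.

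Cell cycle genes moved in the same libraries. In villus at day 91, 12 of 20 G2 and M phase genes and 7 of 21 S phase genes rose and none fell, where 22.8% of all probes rose. The summed CPM of the G2 and M phase genes, with *Top2a* the most abundant, had a median of 131 untreated (59.4 to 533), 273 at 60 ppm (233 to 733), and 285 at 180 ppm (195 to 388). In crypt, 4 of 20 rose at day 8 and 5 of 20 at day 91, beside 3.33% and 9.55% of all probes, and the sum rose from a median of 1045 to 1645 CPM at 180 ppm and day 8 and from 863 to 1750 CPM at 60 ppm and day 91. In villus at day 8 none of the 20 was called, with a median of 365 CPM untreated, 217 at 60 ppm, and 642 at 180 ppm. Over all doses, 19 of 20 at day 8 and 20 of 20 at day 91 were higher in crypt than in villus, beside 24.8% and 23.2% of all probes, with medians of 1.71 and 2.51. Of 21 S phase genes, 2 rose in crypt at day 8 and 3 at day 91, and in villus at day 8, where 5.77% of all probes rose and 9.9% fell, 1 rose and 2 fell.

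Markers of cell types were read beside the slopes. Of 13 villus markers, 9 fell in crypt at day 8, 7 in crypt at day 91, 7 in villus at day 8, and 8 in villus at day 91, with 2 of 13 higher in the last. Of all probes, 5.51%, 4.63%, 9.9%, and 8.11% fell over these trends and 3.33%, 9.55%, 5.77%, and 22.8% rose. Their summed CPM in villus at day 91, with *Fabp2* the most abundant, had a median of 70027 untreated, 159217 at 20 ppm, 88884 at 60 ppm, and 76857 at 180 ppm. Of crypt markers, with *Defa22* the most abundant, *Lgr5* and *Ephb2* rose and *Mmp7* fell in villus at day 91, named here after their values were seen, where 2 of the 12 had no count in untreated villi and the sum had a median of 1654 CPM untreated and 1202 CPM at 60 ppm. Over the day 8 villus trend, where *Fancb* and *Blm* were called lower, 3 of the 12 crypt markers fell and none rose, with a median slope of −0.13 against −0.04 for all probes. In crypt none of the 12 was called at day 8, and 1 rose at day 91. Lymphocyte genes fell in 5, 6, 6, and 6 of 15, with 2 of 15 higher in villus at day 91, and of 12 smooth muscle and fibroblast genes 5 rose and 4 fell there, 6 fell in crypt at day 91, 1 rose and 1 fell in villus at day 8, and none was called in crypt at day 8. Of 19 pancreatic acinar genes, 1 fell in villus at day 8 and none was called elsewhere. The part of cell cycle activity and of cell mixture in the slopes of *Fanci* and *Brip1* was not tested.

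Correlations among the 9 genes are given for each compartment over its libraries. Over the 71 crypt libraries, 34 of 36 pairs correlated positively in log2 CPM, with a median r of 0.27 and a range of −0.12 to 0.53. Over the 66 villus libraries, 27 of 36 pairs were positive, with a median r of 0.09 and a range of −0.16 to 0.35. Libraries share dose, depth, and makeup, so these values are descriptions only. The genes most like the mean of the 9 in crypt, by Pearson r among 9490 genes, were *Ptma* (0.77), *Gm10184* (0.76), *Plk1* (0.76), *Hells* (0.75), *Gar1* (0.75), *Aurka* (0.75), *Rpl19* (0.75), *Tmpo* (0.75), *Ccnb1* (0.75), and *Knl1* (0.74). *Plk1*, *Aurka*, *Ccnb1*, and *Knl1* act in mitosis. In villus, among 9215 genes, they were *Hnrnpu* (0.73), *Fbl* (0.72), *Rps24* (0.71), *Rpl14* (0.70), *Snrpf* (0.69), *Cenpe* (0.69), *Rpl27a* (0.69), *G3bp1* (0.69), *Rpl21* (0.68), and *Rpl6* (0.68), of which 5 encode ribosomal proteins. Probes of ribosomal protein genes and of *Gm10184* can also match near-identical copies.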

How the data were processed

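The deposited counts are raw read counts per TempO-Seq probe, with no normalization by the authors, who left out libraries of low depth or diversity. The submitters' processing notes name bcl2fastq 2.17.1.14 and Bowtie, and the genome build of the counting is not given in the sources used here. The members and gene lists were chosen with earlier results of these data known. The 28 groups were fitted together with edgeR 4.0.16 (R 4.3.3) after filterByExpr and TMM scaling. The quasi-likelihood test (legacy form, trended dispersion) was used with Benjamini-Hochberg adjustment over all 26365 probes and a threshold of 0.1, and was tested on simulated data, where calls of unchanged probes fell mostly among probes with a group at or under 3 counts. Standard errors were taken from the test statistic and are not given where a group had no library above 3 counts. Values ± are SE for log2 values and SD for CPM. The SE rests on a spread between libraries, one per mouse and compartment, estimated over all 28 groups with a trend shared by the probes. It can therefore be wider or narrower than the spread of the libraries compared. Libraries of the same mouse number came from the same animal, and over 66 pairs and 12821 probes their deviations correlated with a median r of 0.12 (−0.16 to 0.52), so a fit with the mouse as a block was also made. That fit, the covariate fits, and the fits that left out 1 of 77 libraries (0, 20, 60, and 180 ppm) kept the dispersion trend of the full fit. DESeq2 1.42.0, limma 3.58.1 (limma-trend, prior count 2), other filters, other scalings, and thinned counts were alternatives, limma-trend and a fit without 3 villus libraries of day 91 rich in cell cycle transcripts being added after seeing the data. Of the pathway lists, up to 3 called genes with the smallest adjusted p per list, compartment, and day are named, except for items not reported here. Likeness used log2(CPM + 1) of genes with a mean of at least 5 CPM.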

Additional observations from a re-analysis of the deposited data

Results flagged for a closer look

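In 40 of 240 groups of 4 to 6 libraries, counted over the 9 genes and every dose where a count was found, 1 library lay far from the rest of its group by Dixon's criterion. Chance gives about 1 in 20, but a group with counts in a single library always meets the criterion, and in 21 of the 40 the other libraries were all at 0. In untreated villi at day 91, *Fanci* was 7.28 CPM in mouse 6, and *Fancd2*, *Brca2*, and *Blm* were 3.44, 10.7, and 3.06 CPM in mouse 7, with every other library of the group at 0. *Fanca* was 5.9 CPM in the untreated crypt of mouse 8 at day 91 and 3.23 CPM in the villus of mouse 448 at 60 ppm and day 8, again with the rest at 0, and 4.2 CPM in the villus of mouse 404 at 60 ppm and day 91. *Fancb* was 6.37 CPM in the villus of mouse 449 at 60 ppm and day 8, with the rest at 0.

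*Brca2* was 36.7 CPM in the villus of mouse 447 at 60 ppm and day 8, where the others reached at most 0.604 CPM. This library also stood apart in its crypt, G2 and M phase, and smooth muscle genes, and without it *Brca2* was called lower at 60 ppm (adjusted p = 0.089), with no villus of that group left above 3 counts. At day 91 *Brca2* was 7.96 CPM in the villus of mouse 402 at 60 ppm, and in mouse 485 at 180 ppm it was 7.6 CPM in villus, the high extreme of its group, and 4.67 CPM in crypt, the low extreme. *Palb2* was 18.3 CPM in the crypt of mouse 447 at 60 ppm and day 8, in which *Fanca* was at 0, and 12.1 CPM in the crypt of mouse 488 at 180 ppm and day 91. *Brca1* was 32.5 CPM in the crypt of mouse 529 at 180 ppm and day 8 and 3.99 CPM in the untreated crypt of mouse 49, the library with few crypt markers. *Brip1* was 26.4 CPM in the crypt of mouse 402 at 60 ppm and day 91, and *Fanci* was 0 in the villus of mouse 450 at 60 ppm and day 8.

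At 0.1 to 20 ppm and day 8, the villus of mouse 289 at 5 ppm held the only counts of its group for *Fanca* (4.12 CPM), *Brca2* (9.81 CPM), and *Fancb* (10.1 CPM). Single villi with counts at 1.4 ppm were 3.18 CPM of *Fancd2* in mouse 208, 10.1 CPM of *Fanca* in mouse 207, and 5.8 CPM of *Palb2* in mouse 209, and at 20 ppm 2.95 CPM of *Fanca* in mouse 367 and 5.26 CPM of *Palb2* in mouse 369. *Fanci* was 22.3 CPM in the villus of mouse 129 at 0.1 ppm, where the others had 5.16 to 8.71 CPM, and *Fancb* was 13.0 CPM in the crypt of mouse 210 at 1.4 ppm, where the others had 1.71 to 3.92 CPM.

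At 0.1 to 20 ppm and day 91, single villi with counts were 4.4 CPM of *Fancd2* in mouse 162 at 1.4 ppm, 1.94 and 1.09 CPM of *Fanca* in mouse 245 at 5 ppm and mouse 328 at 20 ppm, 2.04 and 0.821 CPM of *Fancb* in mouse 84 at 0.1 ppm and mouse 161 at 1.4 ppm, and 3.98 CPM of *Blm* in mouse 81 at 0.1 ppm. *Fanci* was 6.22 CPM in the villus of mouse 82 at 0.1 ppm, *Palb2* 4.14 CPM in the villus of mouse 321 at 20 ppm, *Fanca* 2.37 CPM in the crypt of mouse 328 at 20 ppm, and *Brip1* 21.7 CPM in the villus of mouse 164 at 1.4 ppm, each above the rest of its group. *Brip1* was 6.07 CPM in the crypt of mouse 81 at 0.1 ppm, below the 18.9 to 23.1 CPM of the rest.

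The villus slope differed between days for *Fanci*, by 0.54 per dose step (day 91 minus day 8), and for *Blm*, by 0.91, by the test of the difference itself, beside 10.5% of all probes called higher. With the number of probes detected as a covariate neither gene was called, and 0.944% of all probes were called higher. The value for *Fanci* was 1.16 without the untreated day 91 villus of mouse 6, and that for *Blm* rests on day 8 groups without counts.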

How the results depend on the processing

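Counts are of the 9 genes called, each with the share of all probes called in the same fit, higher unless said otherwise. In crypt at 180 ppm (0 called, 0.474% at day 8 and 2.16% at day 91), 1 was called at day 8 with DESeq2 (4.48%), the default edgeR form (1.05%), and separate fits (1.8%), and 1 at day 91 with separate fits (12.2%). At 60 ppm and day 91 (0, 6.71%), DESeq2 (12%) and the default form (9.78%) called 1 and separate fits 2 (18.1%). Over the crypt trend of day 8 (0, 3.33%), DESeq2 (7.66%), limma-trend (2.58%), and separate fits (5.08%) called 1 and the default form 2 (3.69%), and at day 91 (0, 9.55%) DESeq2 (12%), the default form (10.7%), and summed probes (10.6%) called 1 and separate fits 3 (19.5%). In villus at 180 ppm and day 8 (2, 1.88% higher and 2.84% lower), 1 was called with DESeq2 size factors (1.9% and 3.12%), the default form (2.5% and 3.46%), no filter (1.61% and 2.1%), or without mice 48 and 49 (1.56% and 2.2%), and 0 with thinned counts (3.71% and 4.43%) or separate fits (0.912% and 1.7%). At 60 ppm (2, 2.36% and 3.8%), the default form (2.94% and 3.63%), limma-trend (3.27% and 5.67%), and summed probes (3.56% and 4.57%) called 1 and separate fits 0 (0.922% and 1.44%), and over the trend (3, 5.77% and 9.9%) the default form (5.86% and 8.19%) and limma-trend (5.82% and 8.66%) called 1 and separate fits 0 (3.59% and 5.53%). In villus at day 91, 2 were called at 180 ppm (1, 9.44%) with thinned counts (14.3%), the default form (8.9%), limma-trend (12.4%), or without the villi of mice 7, 243, and 402 (8.85%), a choice made after seeing the data, and 0 with separate fits (10.8%). At 60 ppm (3, 10.4%), 1 was called with DESeq2 size factors (5.91%), log10 total (6.93%), probes detected (5.34%), separate fits (11.7%), or without those 3 villi (8.52%), and over the trend (2, 22.8%) 4 with limma-trend (21.3%) or without those villi (19.8%). With probes detected as a covariate 5 of 9 were higher in crypt at day 8 (9.96%) and 1 was called for the day difference in villus (0.944% and 0.212% lower), where summed probes also called 1 (9.29%). For the compartment difference of trends DESeq2 called 1 on each day (0.786% at day 8, and 3.05% lower at day 91), and at day 91 limma-trend (2.52% lower) and summed probes (3.4% lower) called 1. The fit with the mouse as a replicate block called 2 for the compartment difference of trends at day 91 (5.36% lower). It added *Palb2* to and removed *Fanca*, which it could not test, from the compartment calls of day 91, and changed no other call. Leaving out 1 library gave 0 to 2 and 0 to 3 called in villus at 180 ppm on days 8 and 91, 1 to 3 at 60 ppm on each day, 2 to 3 and 2 to 5 over the villus trends, 0 to 1 over the crypt trend of day 91, 0 to 0 at the crypt doses and over the crypt trend of day 8, 8 to 9 and 7 to 9 between compartments, 0 to 1 for the difference of trends on each day, and 2 to 2 and 0 to 0 for the day difference in villus and crypt. Under the settings other than leaving out 1 library, signs changed in 45 of 1344 values of single genes, in none of which either fit called the gene. Leaving out 1 library changed the sign of *Brca2* with a call at 60 ppm in villus of day 8 without mouse 447 and over the villus trend of day 91 without mouse 7, each of which left a group with no villus above 3 counts, so that the fitted values depend on the prior count. The causes were not tested. Low counts of *Fanca*, *Fancb*, and *Blm* in villus limit every value of these genes there.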
